A study of Mus musculus with 9 samples.

Results

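The tripartite motif (TRIM) genes encode a family of ubiquitin ligases whose messenger RNAs were followed here in mouse bone-marrow-derived macrophages. Members were all gene symbols that start with Trim and a digit, leaving out Trim25 and Trim30a, which gave 66 of the 22376 gene symbols in the 9 libraries. A TRIM protein carries a RING domain, which recruits a ubiquitin-loaded E2 enzyme, then B-box zinc fingers and a coiled coil through which the proteins pair. A variable C-terminal part, such as a B30.2 (PRY-SPRY) domain, NHL repeats or a PHD finger with a bromodomain, selects the target. Many TRIM proteins act in the innate immune pathways of macrophages, where they tag sensors, adaptors or viral capsids, and several of their genes are induced by interferon.

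Marrow of tibias and femurs of healthy wild-type C57Bl/6 mice was cultured in bags for 1 week with 10 ng/ml of macrophage colony-stimulating factor. That factor was then washed away in all groups, and 50000 cells per well were kept for 48 h. One group of 3 samples received a PD-L1 antibody at 100 µg/ml (libraries 1 to 3), a second group 100 µg/ml of an irrelevant isotype-matched antibody (libraries 4 to 6), and the third no antibody (libraries 7 to 9). The age and number of mice, and whether the samples came from separate animals, are not given in the sources used here, so p-values rest on the spread of these samples alone, and that spread may be technical. All values are exonic reads per 1000000 (CPM), scaled between libraries. Fold changes are differences of log2(CPM + 1), so those of low genes come out smaller than they are, and 95% intervals are not adjusted for the number of genes.

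Exonic read totals ran from 23554320 to 40116467 per library. The macrophage markers Adgre1, Csf1r, Cd68, Itgam, Fcgr1, Mertk, Lyz2 and Cd14 summed to 22115 to 26465 CPM with the PD-L1 antibody, 19369.6 to 22974 with the isotype antibody and 17368 to 22778 in untreated samples, with 4 of 8 higher and 1 lower with the PD-L1 antibody than with the isotype antibody. Of the neutrophil and granulocyte precursor markers, 4 of 9 tested were lower with the PD-L1 antibody than with the isotype antibody and none higher. Their sum was 356 to 498 CPM with the PD-L1 antibody, 681 to 1277 CPM with the isotype antibody and 513 to 711 CPM in untreated samples. Dendritic cell markers were lower in 6 of 10 cases and higher in 1 (433 to 493, 374 to 589 and 317 to 573 CPM in sum, in the same order). Red cell markers were lower in 3 of 5 tested and close to absent (2.36 to 4.14, 7.75 to 15.8 and 13.5 to 19.1 CPM), with 5 of 8 under 1 CPM in every library. Of the T, B and NK cell markers 8 of 9 were under 1 CPM in every library or not listed, and of those for mast cells none was called. Megakaryocyte markers were higher in 1 of 5 cases (Pf4) and lower in 2, and against untreated samples higher in 1 and lower in 4 (269.6 to 409, 87.6 to 134 and 154 to 186 CPM in sum). Stromal and endothelial markers were higher in 3 of 7 cases, and against untreated samples higher in 1 and lower in 1 (53.1 to 72.4, 34.9 to 49 and 54.7 to 81.1 CPM). Against untreated samples neutrophil markers were lower in 6 of 9 cases, dendritic cell markers lower in 7 and higher in 1 of 10, red cell markers lower in 4 of 5 and macrophage markers higher in 4 and lower in 1 of 8. Beside these marker counts, 18.2% of all 13741 genes tested were higher and 18.2% lower against the isotype antibody. For the comparison with untreated samples these shares were 22% and 20.5%. The part of these other cell types in the TRIM values was not tested, and in such bulk samples fewer cells of a type and less RNA per cell cannot be told apart.

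TRIM genes split in both directions with the PD-L1 antibody. The cytosolic antibody receptor gene Trim21, the paralogs Trim30b and Trim30d and the ligase gene Trim13 rose by 0.84 to 1.19 on the log2 scale against the isotype antibody, while Trim16 and Trim47 fell by 1.77 and 1.49. Of 43 members with enough reads to be tested, 17 passed the threshold of 0.05 for the limma p adjusted by Benjamini-Hochberg and are named called, 8 of them higher and 9 lower. Over all 13741 genes tested 36.4% were called, 18.2% higher and 18.2% lower, so the share of called members was near that of all genes. The median log2 fold change was -0.084 over the members and -0.015 over all genes, and the median size without sign was 0.29 and 0.25. In 24 of 43 members the libraries of both groups did not overlap, against 52.1% of all genes. Scaled by total counts in place of TMM (a scaling that takes the bulk of genes as unchanged), the split of members became 5 higher and 18 lower. That scaling moved the median of all genes to -0.16 and their split to 1565 higher and 4143 lower.

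Against untreated samples, 19 of 43 members were called, 11 higher and 8 lower, beside 42.4% of all genes (22% higher, 20.5% lower). The median log2 fold change was 0.054 over the members and -0.011 over all genes. In 21 of 43 members the libraries of both groups did not overlap, against 51.2% of all genes. Both comparisons share the 3 PD-L1 antibody libraries; 14 members were called in both, which is 14 of 17 and 14 of 19, and all 14 had the same sign. Scaled by total counts the split was 7 higher and 13 lower, beside 1940 higher and 4088 lower of all genes. The difference plot shows each tested member against both controls. The counts rest in part on single libraries: without PD-L1 antibody 2 they were 9 and 12, and without isotype 5 the first was 9. The counts of 9 stood beside 28.2% and 26.8% of all genes called in the same fits, and the 12 beside 33.9%. Without untreated 7 the counts were higher, at 21 and 20 of 45 tested members, beside 43.1% and 48.4% of all genes. Of the 17 calls against the isotype antibody, 8 held under each of the 21 other settings tried that could test them: Trim13, Trim21, Trim30b, Trim30d and Trim43b higher, and Trim16, Trim36 and Trim47 lower. The same held against untreated samples for Trim21, Trim30b, Trim30d, Trim43b and Trim56 higher and for Trim11, Trim16, Trim36 and Trim47 lower.

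**Figure D1:**
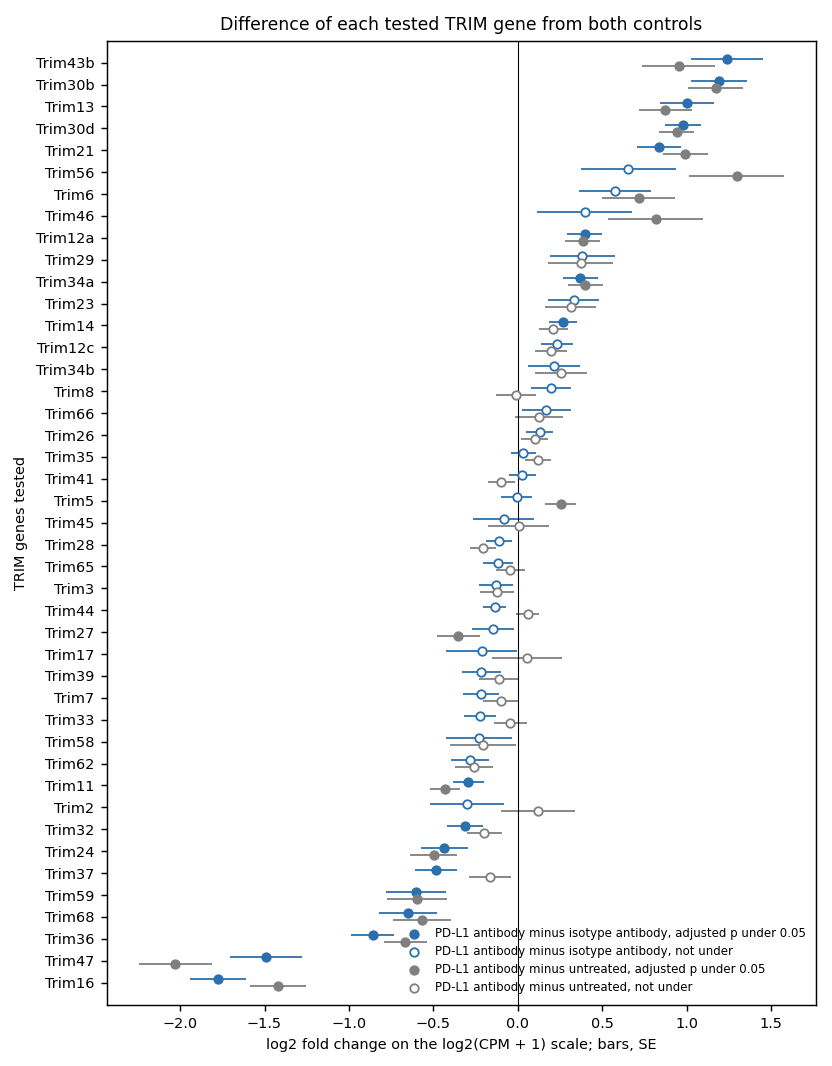
Log2 fold change (x axis, log2(CPM + 1) scale) of the 43 tested TRIM genes (y axis), PD-L1 antibody minus isotype antibody in blue and PD-L1 antibody minus untreated in grey, with SE bars; filled points have an adjusted p under 0.05 in limma. Trim43b (1.24) and Trim30b (1.19) lie at the upper end against the isotype antibody, and Trim47 (-1.49) and Trim16 (-1.77) at the lower end.

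Levels between genes are compared per exon length, as CPM per kb of exon. Trim8, whose product acts on TAK1 in tumour necrosis factor and interleukin-1 signalling, had the highest median over the 9 libraries (81 CPM per kb, range 64.3 to 98.1). Trim14 followed at 62 (53.5 to 75.1) and Trim35 at 46.2 (40.6 to 49.7). The ranges of the first and second overlap, and so do those of Trim35 and Trim47, the fourth (42.6, 13.1 to 79.2). Trim12a, Trim28, Trim34a, Trim30d, Trim26, Trim12c and Trim41 came next, with medians of 34.2 down to 27.7 CPM per kb and overlapping ranges. With the PD-L1 antibody alone, Trim30d stood next after the first 2 by mean (56.3 CPM per kb, after 86 for Trim8 and 69 for Trim14). Trim47, second in untreated samples by mean (63.9 CPM per kb), stood at 15.1 with the PD-L1 antibody. In all, 29 of the 43 tested members averaged at least 10 CPM and 39 at least 1 CPM.

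**Figure D2:**
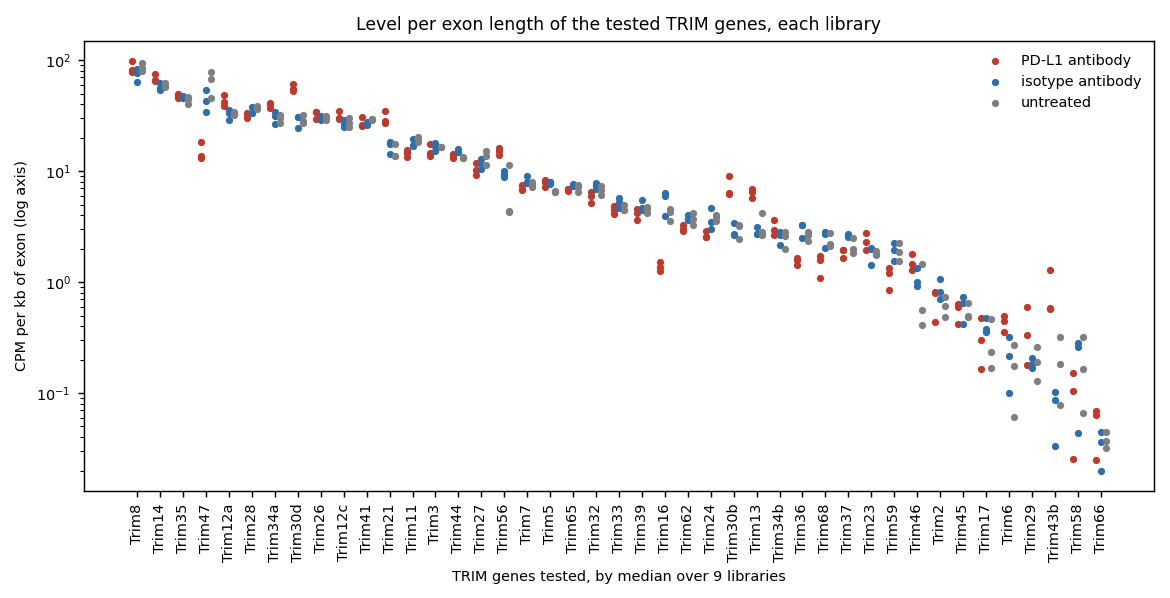
CPM per kb of exon on a log axis (y) for the 43 tested TRIM genes (x, ordered by the median over 9 libraries), with 1 point per library coloured by group. Trim8 stands first with a median of 81 CPM per kb; the PD-L1 antibody points of Trim47 and Trim16 lie below, and those of Trim30d, Trim30b and Trim13 above, the other libraries of the same gene.

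The other 23 members did not reach the minimum count for a test. They were Trim9, Trim10, Trim15, Trim30e-ps1, Trim31, Trim38, Trim40, Trim42, Trim43a, Trim43c, Trim50, Trim52, Trim54, Trim55, Trim60, Trim61, Trim63, Trim67, Trim69, Trim71, Trim72, Trim75 and Trim80. None exceeded 0.497 CPM in any library, and 21 of them were at 0 in at least 1 library. Among them are genes known from other tissues: the muscle ring-finger genes Trim54, Trim55 and Trim63, the muscle membrane-repair gene Trim72, the neuronal Trim9 and Trim67, the stem cell gene Trim71 and the red cell gene Trim10. Trim10 reached 0.0825 CPM at most.

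One group lies on chromosome 7, where Trim6, Trim34a, Trim5, Trim12a, Trim34b, Trim12c, Trim30b, Trim30d and the pseudogene Trim30e-ps1 stand side by side, and Trim21 and Trim68 lie apart on the same chromosome. Trim3, Trim28, Trim66 and Trim72 also lie on chromosome 7 but were placed in other lists. Most proteins of this group end in a B30.2 domain, and the group holds the mouse relatives of the primate retroviral restriction factor TRIM5. Of the 10 tested genes, 5 rose (Trim12a, Trim21, Trim30b, Trim30d and Trim34a) and 1 fell (Trim68) against the isotype antibody, with a median log2 fold change of 0.38, beside 18.2% of all genes higher, 18.2% lower and a median of -0.015. Against untreated samples 7 rose and 1 fell, with a median of 0.39, beside 22% of all genes higher, 20.5% lower and a median of -0.011. The summed level was 589 to 693 CPM with the PD-L1 antibody, 375 to 453 with the isotype antibody and 398 to 443 in untreated samples.

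6 of these genes hold, close to their start site, the letters GAAA, any 2 bases and GAAA again, or the reverse complement, which resemble the core of an interferon-stimulated response element (ISRE). Their sequences are shown because some of these paralogs hold like or identical letters there. Each is written 5′ to 3′ on the sense strand of the gene, from RefSeq (GRCm38.p6), with the match in capitals.
Trim5: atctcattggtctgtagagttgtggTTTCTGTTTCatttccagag
Trim12a: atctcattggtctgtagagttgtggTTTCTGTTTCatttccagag
Trim12c: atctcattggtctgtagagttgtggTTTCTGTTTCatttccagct
Trim30d: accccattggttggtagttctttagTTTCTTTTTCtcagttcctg
Trim34a: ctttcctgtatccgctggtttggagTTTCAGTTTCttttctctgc
Trim21: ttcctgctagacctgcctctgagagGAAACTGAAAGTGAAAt

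These stretches lie at chr7:104288136-104288180 (minus strand), chr7:104315466-104315510 (minus strand), chr7:104353359-104353403 (minus strand), chr7:104507871-104507915 (minus strand), chr7:104244442-104244486 (plus strand) and chr7:102565453-102565494 (minus strand). The stretches of Trim5 and Trim12a were identical in all 45 bases, and that of Trim12c differed from either in 2. The match began 49 bases before the start site in Trim5, 29 before it in Trim12c and 41 before it in Trim30d, and 10 bases after the start-site base in Trim12a and Trim34a. In Trim21 the first of 2 overlapping matches began 13 bases after that base. Distances are from the RefSeq start site, which for Trim12c lies 9 bases from the start of the transcript measured. With identical letters in this stretch, Trim5 had a log2 fold change of -0.0071 (95% interval -0.21 to 0.19) and Trim12a of 0.40 (0.16 to 0.63) against the isotype antibody; the difference between both genes was not tested.

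Searched on both strands in windows of 300 bases (250 before the start site and 50 after), this ISRE-like word was found in 1131 of 32851 RefSeq promoter windows, or 3.44%. Among the members, 50 had such a window, and 8 of these held the word: the 6 above, Trim26 and Trim2. The match in Trim2 lies at a start site 46941 bases from that of the transcript measured here. Of the 8, Trim12a, Trim21, Trim30d and Trim34a rose against the isotype antibody, and Trim2, Trim5, Trim12c and Trim26 were not called. Trim13 and Trim30b rose without the word in their windows, and Trim14 and Trim43b, which also rose, are not among the 8. The letters TTCNNNGAA (interferon-gamma activated site) stood in 8.3% of all windows and in those of 5 members, of which Trim15, Trim31 and Trim38 were not tested and Trim45 and Trim46 were not called against the isotype antibody. The letters GGG, any 5 bases and CC, a loose NF-kB core, stood in 50.8% of all windows and in 25 of the 50 members. The 3 motifs can overlap, and a match is a description of letters only.

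Trim30d (chr7:104470014-104507849, minus strand) stood at 208, 228 and 199.7 CPM in the PD-L1 antibody libraries, 116, 91.7 and 115 CPM in the isotype antibody libraries and 102, 107 and 121 CPM in untreated samples. All 3 PD-L1 antibody libraries lay above the other 6 (log2 fold change 0.98, SE 0.11, limma adjusted p = 3.72e-05 against the isotype antibody). Set against untreated samples instead, Trim30d had a log2 fold change of 0.94 (limma adjusted p = 4.44e-05). Its relative Trim30b (chr7:104355398-104358646, minus strand) was at 17.7, 25.1 and 17.1 CPM in the PD-L1 antibody libraries, 7.32, 7.55 and 9.41 CPM in the isotype antibody libraries and 8.86, 6.82 and 9.04 CPM in untreated samples. Here too the groups did not overlap, with PD-L1 antibody 2 the highest (log2 fold change 1.19, SE 0.16, limma adjusted p = 0.000211 against the isotype antibody). The rise against untreated samples was 1.17 on the log2 scale (limma adjusted p = 0.000214). In this family, regulation of NF-kB and inflammasome signalling is known for Trim30a, an interferon-induced member left out here. Of the 150-base words in the transcripts of Trim30d, 3.23% also occur in Trim30a, so reads of these can be confused over a small part of their length, and for Trim30b none was shared with another gene. Side by side, the fitted rise was 1.19 for Trim30b and 0.98 for Trim30d, at levels of 7.21 and 56.3 CPM per kb with the PD-L1 antibody.

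Trim21 (chr7:102557920-102565482, minus strand) encodes a ligase that binds the Fc part of antibodies in the cytosol and sends antibody-coated particles to the proteasome. Its levels were 75.2, 97.6 and 79.8 CPM in the PD-L1 antibody libraries, 49, 40.2 and 50.8 CPM in the isotype antibody libraries and 49, 38.2 and 38.4 CPM in untreated samples. The lowest PD-L1 antibody library lay above every other one (log2 fold change 0.84, SE 0.13, limma adjusted p = 0.000542 against the isotype antibody). For Trim21 and untreated samples, the log2 fold change was 0.99 (limma adjusted p = 0.000147). With the isotype antibody the gene was not called against untreated samples (log2 fold change 0.16, 95% interval -0.13 to 0.45, limma adjusted p = 0.62), nor without untreated 7, where the log2 fold change was 0.27 (limma adjusted p = 0.148). Trim68, on the same chromosome (chr7:102677585-102687327, minus strand), went the other way, at 3.76, 2.61 and 4.14 CPM in the PD-L1 antibody libraries, 4.87, 6.81 and 6.45 CPM in the isotype antibody libraries and 6.64, 5.04 and 5.25 CPM in untreated samples. Groups did not overlap, but the gap between 4.14 and 4.87 CPM was small (log2 fold change -0.65, SE 0.17, limma adjusted p = 0.0119 against the isotype antibody). The call was lost without PD-L1 antibody 2 or isotype 5 (limma adjusted p = 0.0529 and 0.0542).

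Of the relatives of primate TRIM5, Trim12a was called against the isotype antibody and Trim12c and Trim5 were not. Trim12a (chr7:104299897-104315495, minus strand) stood at 64.5, 74.6 and 58.7 CPM in the PD-L1 antibody libraries, 54.3, 44 and 51.2 CPM in the isotype antibody libraries and 49.6, 48.5 and 52.1 CPM in untreated samples. Its groups did not overlap (log2 fold change 0.40, SE 0.10, limma adjusted p = 0.0123 against the isotype antibody), and the call was lost with total-count scaling (log2 fold change 0.22), with the deposited read numbers (0.20) and without PD-L1 antibody 2 or isotype 5. Against untreated samples the log2 fold change was 0.38 (limma adjusted p = 0.0125). Trim12c (chr7:104338754-104353358, minus strand) had 112, 132 and 110.0 CPM in the PD-L1 antibody libraries, while the isotype libraries had 107, 93.3 and 99.9 CPM. Its log2 fold change of 0.23 was not called (95% interval 0.019 to 0.45, limma adjusted p = 0.0847). Trim5 (chr7:104264448-104288106, minus strand) had 20.9, 20.1 and 17.8 CPM with the PD-L1 antibody, 20.1, 18.9 and 19.9 with the isotype antibody and 16.1, 16.2 and 16.4 in untreated samples. Both antibody groups lay above the untreated samples there, and the call against untreated samples (log2 fold change 0.25, limma adjusted p = 0.0424) was lost in 11 of 21 other settings. For Trim5 only 45.7 to 54% of the reads over the gene's span were exonic. For Trim12a this share was 52.9 to 55.4% with the PD-L1 antibody, 48.1 to 49.8% with the isotype antibody and 50.1 to 53.1% in untreated samples.

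Trim34a (chr7:104244457-104262236, plus strand), an interferon-inducible member, stood at 104, 107 and 95.8 CPM in the PD-L1 antibody libraries, 88.8, 68.3 and 81.3 CPM in the isotype antibody libraries and 78.5, 70.8 and 83.4 CPM in untreated samples. The rise against the isotype antibody was small (log2 fold change 0.37, SE 0.10, limma adjusted p = 0.0165) and was lost in 6 of 21 settings, among them without isotype 5 or without the PD-L1 antibody libraries 1 or 2. Set against untreated samples instead, Trim34a had a log2 fold change of 0.40 (limma adjusted p = 0.00978). Of its 150-base words 24.3% occur in other genes, the antisense gene Gm47248 and the copy Trim34b, and the strand of the reads is not stated, so its value is uncertain. Trim34b, with 11.6% of its words shared, was at 3.07 to 5.57 CPM and was not called. Trim6, whose product makes free ubiquitin chains that activate the kinase IKK-epsilon, was low: 1.37, 1.91 and 1.69 CPM in the PD-L1 antibody libraries, 1.23, 0.38 and 0.823 CPM in the isotype antibody libraries and 1.04, 0.234 and 0.67 CPM in untreated samples. It was called against untreated samples (log2 fold change 0.71, limma adjusted p = 0.0198), not against the isotype antibody (0.58, limma adjusted p = 0.0563). The first call was lost in 5 of 21 settings: no filter, the deposited read numbers, and without PD-L1 antibody 2 or 3 or untreated 8. Against the isotype antibody Trim6 was called in 4 of 21: only the 2 groups compared, and without isotype 4, untreated 7 or untreated 8. No more than 49.2 exonic reads lay behind any CPM value of Trim6.

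**Figure D3:**
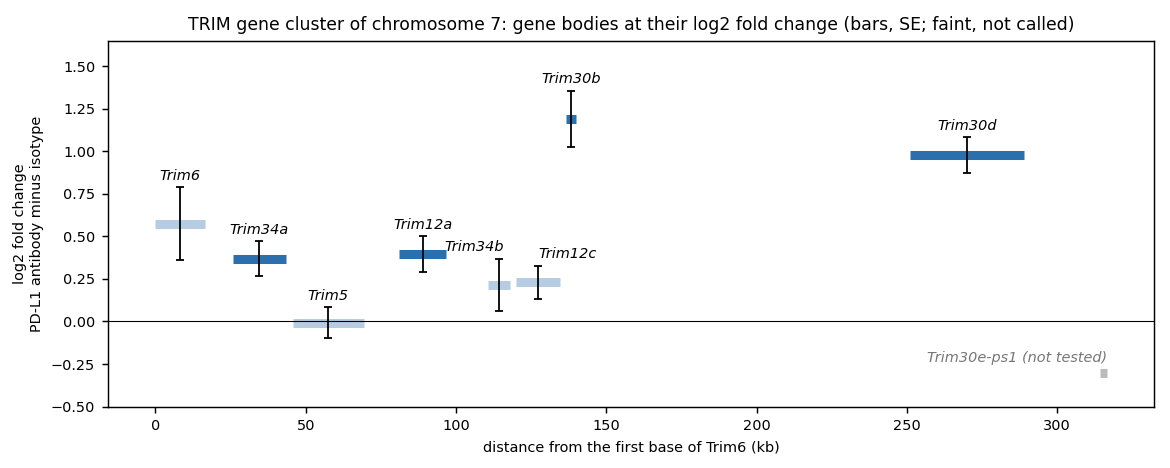
Genes of the chromosome 7 cluster as bars over their gene bodies (x axis, distance in kb from the first base of Trim6) at their log2 fold change, PD-L1 antibody minus isotype antibody (y axis), with SE; faint bars were not called and the grey bar was not tested. Trim30b and Trim30d lie at 1.19 and 0.98 and the 6 other tested genes of this cluster between -0.0071 and 0.58.

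A second group regulates innate immune signalling from other chromosomes. Of 11 tested members, Trim13 and Trim14 rose and Trim59 fell against the isotype antibody, and Trim8, Trim23, Trim26, Trim27, Trim35, Trim56, Trim62 and Trim65 were not called; 36.4% of all genes were called. Trim13 (chr14:61599512-61605945, plus strand), a ligase anchored in the endoplasmic reticulum, stood at 10.2, 9.02 and 11 CPM in the PD-L1 antibody libraries, 4.27, 4.31 and 4.99 CPM in the isotype antibody libraries and 6.69, 4.51 and 4.18 CPM in untreated samples. Its groups did not overlap (log2 fold change 1.00, SE 0.16, limma adjusted p = 0.000514 against the isotype antibody). The rise against untreated samples was 0.87 on the log2 scale (limma adjusted p = 0.00113). The exonic part of the reads over its span differed as well, at 59.2, 55.7 and 65.5% with the PD-L1 antibody, 34.5, 37.3 and 43.1% with the isotype antibody and 53.6, 31.9 and 30.1% in untreated samples. On the deposited read numbers, which take in the intron, the log2 fold changes were 0.45 and 0.28 (edgeR adjusted p = 0.0153 and 0.0887).

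Trim14 (chr4:46505072-46536141, minus strand) encodes an adaptor without a RING domain that docks to MAVS on mitochondria. By median level per exon length it came second, at 213, 241 and 209.8 CPM in the PD-L1 antibody libraries, 199, 171 and 181 CPM in the isotype antibody libraries and 199, 185 and 187 CPM in untreated samples. Groups did not overlap with the isotype antibody, but the difference was small (log2 fold change 0.27, SE 0.084, limma adjusted p = 0.0286) and lost in 8 of 21 settings, among them total-count scaling (0.091) and the fits that leave out isotype 5, isotype 6, or the PD-L1 antibody libraries 1 or 2. Trim14 was not called against untreated samples (log2 fold change 0.21, limma adjusted p = 0.0647). Of its 150-base words 26.9% are shared with Nans and the antisense gene Gm16731. Trim59 (chr3:69035294-69044742, minus strand) fell, at 3.53, 2.48 and 3.95 CPM in the PD-L1 antibody libraries, 4.5, 6.52 and 5.63 CPM in the isotype antibody libraries and 4.55, 6.56 and 5.43 CPM in untreated samples (log2 fold change -0.61, SE 0.18, limma adjusted p = 0.0202 against the isotype antibody). The PD-L1 antibody libraries were the 3 lowest of the 9. Leaving out isotype 5 or 6 ended the call (limma adjusted p = 0.0877 and 0.057), and so did leaving out PD-L1 antibody 2 (0.0886).

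Trim56 (chr5:137111286-137116207, minus strand), a ligase of the STING and double-stranded RNA pathways, had 50.6, 55.1 and 58.8 CPM in the PD-L1 antibody libraries, 32.6, 34.5 and 36.2 CPM in the isotype antibody libraries and 41, 15.5 and 15.8 CPM in untreated samples. Untreated 7 stood apart from untreated 8 and 9, above the isotype antibody libraries. The gene was called against untreated samples (log2 fold change 1.30, SE 0.28, limma adjusted p = 0.0035). Against the isotype antibody the log2 fold change was 0.65 with groups that did not overlap, and it was not called (limma adjusted p = 0.0916). Without untreated 7 that difference was 0.65 with a limma adjusted p = 4.29e-05.

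The more abundant Trim8, Trim35 and Trim26 were not called in either comparison. Trim8 (chr19:46501648-46516455, plus strand) had 256, 263 and 318 CPM in the PD-L1 antibody libraries, 251, 270.0 and 208 CPM in the isotype antibody libraries and 259, 304 and 277 CPM in untreated samples, with overlapping groups and a log2 fold change of 0.20 (95% interval -0.06 to 0.45) against the isotype antibody. Trim35 and Trim26, with means of 176 ± 7.43 and 106 ± 8.66 CPM with the PD-L1 antibody (SD, n = 3), had log2 fold changes of 0.032 and 0.13 with 95% intervals of -0.13 to 0.20 and -0.047 to 0.30. Trim26 encodes a ligase that acts on IRF3 and NEMO. Trim27 (chr13:21179931-21194723, plus strand), a repressor of NF-kB and IRF signalling, stood at 43.5, 39.1 and 49.9 CPM in the PD-L1 antibody libraries, 54, 49.3 and 43.8 CPM in the isotype antibody libraries and 48.3, 64.4 and 57.7 CPM in untreated samples. It fell against untreated samples (log2 fold change -0.35, SE 0.13, limma adjusted p = 0.0418), a call lost in 8 of 21 settings, and was not called against the isotype antibody (-0.15), except with total-count scaling (-0.32, limma adjusted p = 0.0433). Trim23, Trim62 and Trim65, linked to NEMO, CARD9 and MDA5, had log2 fold changes of 0.33, -0.28 and -0.12 against the isotype antibody, none called.

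The TIF1 members Trim24, Trim28, Trim33 and Trim66 carry a PHD finger and bromodomain and act on chromatin in the nucleus. Trim24 fell and the other 3 were not called. Trim24 (chr6:37870811-37968445, plus strand), a histone reader that also targets p53, stood at 15.7, 15.9 and 17.8 CPM in the PD-L1 antibody libraries, 21.5, 28.8 and 18.6 CPM in the isotype antibody libraries and 25, 24 and 22.2 CPM in untreated samples. The groups did not overlap, though PD-L1 antibody 3 and isotype 6 lay close, at 17.8 and 18.6 CPM (log2 fold change -0.43, SE 0.14, limma adjusted p = 0.0311 against the isotype antibody), and the call was lost without PD-L1 antibody 1 or 2 or isotype 4 or 5. For Trim24 and untreated samples, the log2 fold change was -0.50 (limma adjusted p = 0.0143). Trim28 (chr7:13024152-13031032, plus strand), or KAP1, the co-repressor recruited by KRAB zinc finger proteins, had 107, 98.7 and 109 CPM in the PD-L1 antibody libraries, 108, 123 and 109 CPM in the isotype antibody libraries and 119, 126 and 118 CPM in untreated samples. The groups overlapped with the isotype antibody, and the log2 fold change was -0.11 (95% interval -0.28 to 0.059). With total-count scaling it was -0.29 and called (limma adjusted p = 0.0123). Between the PD-L1 antibody and untreated samples the groups of Trim28 did not overlap. The log2 fold change there was -0.21 (95% interval -0.38 to -0.034) and was not called (limma adjusted p = 0.0535). In 7 of 21 other settings Trim28 was called lower than in untreated samples. Trim33 (chr3:103279293-103358770, plus strand), a regulator of SMAD signalling, had 36.7, 42.8 and 39.3 CPM in the PD-L1 antibody libraries, 41.7, 50.9 and 47.1 CPM in the isotype antibody libraries and 43.6, 39.4 and 39.5 CPM in untreated samples, overlapping groups and a log2 fold change of -0.23 (95% interval -0.44 to -0.014, limma adjusted p = 0.0897). It was called lower with total-count or upper-quartile scaling (-0.40 and -0.29), on the deposited read numbers (-0.30) and without isotype 4. Trim66 was under 1 CPM in every library.

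Trim16 (chr11:62820253-62842948, plus strand) had the largest fall of any member against the isotype antibody. Its product works with galectin-3 in the autophagy of damaged lysosomes and takes part in the secretion of interleukin-1 beta. It stood at 5.91, 5.28 and 4.9 CPM in the PD-L1 antibody libraries, 15.5, 23.1 and 24.8 CPM in the isotype antibody libraries and 16.7, 17.6 and 13.9 CPM in untreated samples. The PD-L1 antibody libraries lay close together and far below the other 6 (log2 fold change -1.77, SE 0.17, limma adjusted p = 1.27e-05 against the isotype antibody). Against untreated samples the log2 fold change was -1.42 (limma adjusted p = 5.87e-05). Trim47 (chr11:116105750-116110235, minus strand), a RING ligase, was at 28.7, 30.1 and 40.5 CPM in the PD-L1 antibody libraries, 93.4, 119 and 74.4 CPM in the isotype antibody libraries and 99.3, 174 and 148 CPM in untreated samples. All PD-L1 antibody libraries lay below all others, although untreated samples varied widely (log2 fold change -1.49, SE 0.21, limma adjusted p = 0.000289 against the isotype antibody). Set against untreated samples instead, Trim47 had a log2 fold change of -2.03 (limma adjusted p = 2.96e-05). Its neighbour Trim65 (chr11:116124708-116131128, minus strand) lies on the same strand and shares 7.18% of its exon bases and 1.34% of its 150-base words with Trim47. It had 20.3, 21.2 and 21 CPM in the PD-L1 antibody libraries, while the isotype libraries had 22.4, 23.6 and 22.2 CPM. The log2 fold change of Trim65 was -0.12, not called (95% interval -0.31 to 0.074).

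In the list of members known from protein turnover, DNA damage and growth, which holds Trim16 and Trim47, 4 of 8 tested fell against the isotype antibody and none rose (median -0.25), beside 18.2% of all genes in each direction. The others that fell were Trim37 and Trim11. Trim37 (chr11:87127075-87220686, plus strand), a ligase of peroxisomes and centrosomes, stood at 11.1, 11 and 9.23 CPM in the PD-L1 antibody libraries, 15, 14.4 and 15.5 CPM in the isotype antibody libraries and 14, 10.3 and 11.3 CPM in untreated samples. It fell against the isotype antibody (log2 fold change -0.49, SE 0.12, limma adjusted p = 0.0103), while against untreated samples it was not called (log2 fold change -0.16, limma adjusted p = 0.312), with PD-L1 antibody 1 and 2 within the range of untreated 8 and 9. The call was lost on the deposited read numbers (-0.37, edgeR adjusted p = 0.0544). Of the reads over the span of Trim37, 50.9 to 56.5% were exonic with the PD-L1 antibody, 58.9 to 64.2% with the isotype antibody and 58.1 to 63.5% in untreated samples. Trim11, linked to the clearance of misfolded proteins, fell from 41.4 ± 3.24 to 33.6 ± 2.59 CPM (n = 3 each; log2 fold change -0.29, SE 0.09, limma adjusted p = 0.0257), a call lost without isotype 5 or without the PD-L1 antibody libraries 1 or 2, and from 45.6 ± 2.41 CPM in untreated samples (log2 fold change -0.43, limma adjusted p = 0.00293). Trim39, Trim41, Trim44 and Trim45 were not called, with log2 fold changes from -0.22 to 0.026.

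Of the members with NHL repeats, Trim32, a ligase mutated in a limb-girdle muscular dystrophy, was at 19.1, 16.6 and 20.6 CPM in the PD-L1 antibody libraries, 22.2, 23.4 and 24.8 CPM in the isotype antibody libraries and 19.7, 21.9 and 23.3 CPM in untreated samples. It fell against the isotype antibody (log2 fold change -0.31, SE 0.11, limma adjusted p = 0.0388), but the call was lost in 8 of 21 settings, among them without any 1 of PD-L1 antibody 1 or 2, isotype 4, 5 or 6 and untreated 8. Trim32 was not called against untreated samples (log2 fold change -0.20, limma adjusted p = 0.154), where the groups overlapped. The neuronal ligase genes Trim2 and Trim3 were not called against the isotype antibody (-0.30 and -0.13). The COS-box members bind microtubules. Trim36 had 7.23, 6.51 and 7.54 CPM in the PD-L1 antibody libraries, 11.5, 14.9 and 14.8 CPM in the isotype antibody libraries and 12.9, 12.1 and 10.6 CPM in untreated samples, with PD-L1 antibody libraries below all others (log2 fold change -0.86, SE 0.13, limma adjusted p = 0.000365 against the isotype antibody). The fall against untreated samples was -0.67 on the log2 scale (limma adjusted p = 0.00169). Trim46, known from the axon initial segment, had 4.24, 4.84 and 5.96 CPM in the PD-L1 antibody libraries, 3.02, 3.31 and 4.39 CPM in the isotype antibody libraries and 4.79, 1.35 and 1.86 CPM in untreated samples, and untreated 7 lay within the PD-L1 antibody range. It was called against untreated samples (log2 fold change 0.82, limma adjusted p = 0.036), a call lost in 12 of 21 settings.

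**Figure D4:**
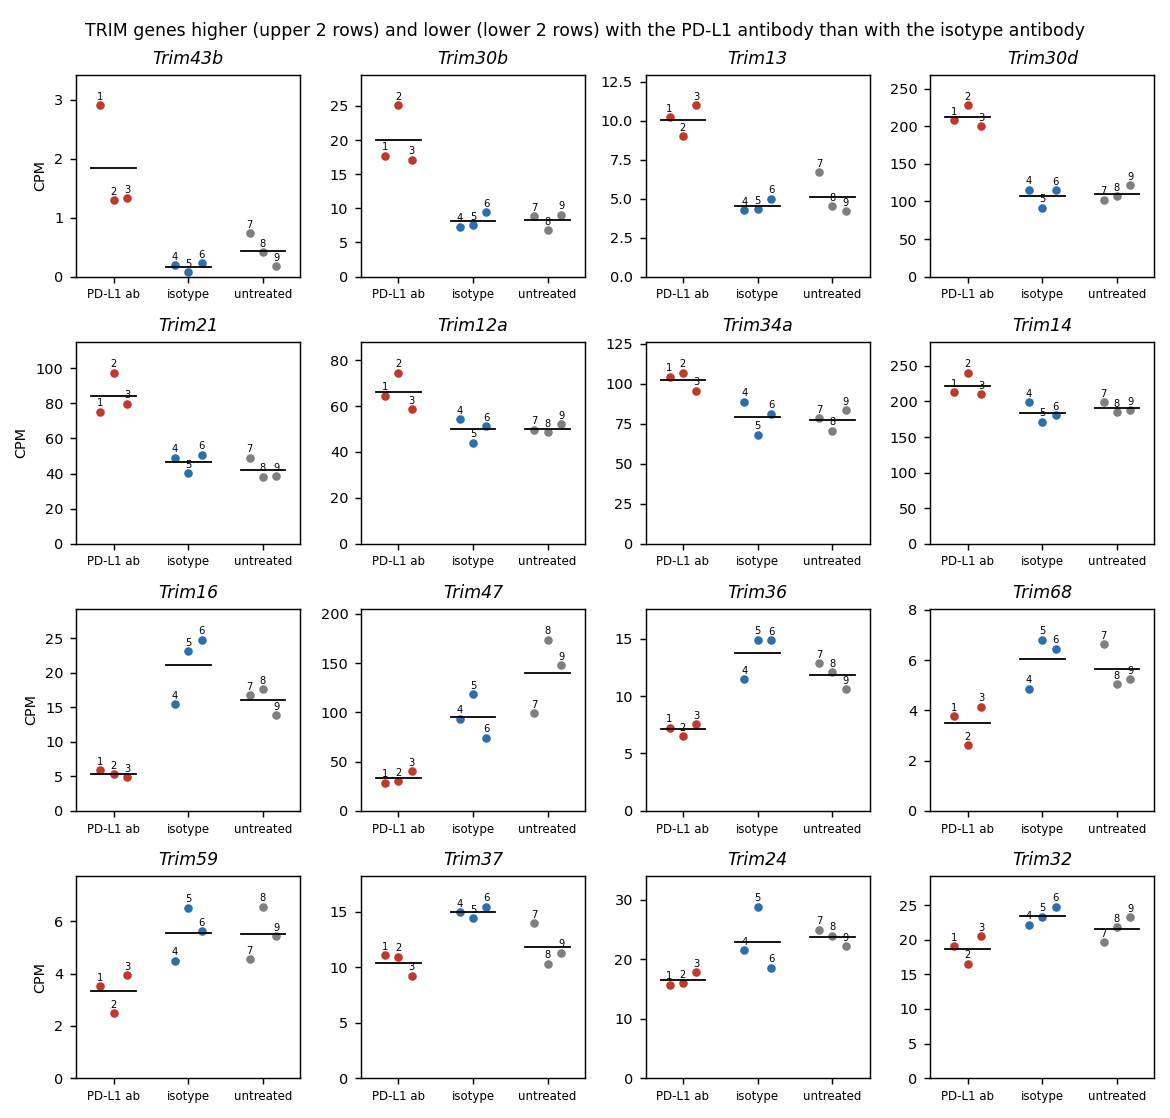
CPM (y axis, from 0) in each of the 9 libraries, numbered, with group means as lines, for the 8 TRIM genes that rose (upper 2 rows) and 8 of the 9 that fell (lower 2 rows) against the isotype antibody. Trim30d stands at 199.7 to 228 CPM with the PD-L1 antibody, above all other libraries, and Trim16 at 4.9 to 5.91 CPM, below them.

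Among members known from restricted tissues, Trim7, Trim17, Trim29, Trim43b and Trim58 could be tested and only Trim43b was called. Trim43b (chr9:89084624-89092835, minus strand) belongs to a family known from the early embryo. It stood at 2.9, 1.29 and 1.33 CPM in the PD-L1 antibody libraries, 0.197, 0.0757 and 0.23 CPM in the isotype antibody libraries and 0.732, 0.415 and 0.176 CPM in untreated samples. PD-L1 antibody 1 was well above the other 2 of its group, and all 3 lay above the other 6 (log2 fold change 1.24, SE 0.21, limma adjusted p = 0.00101 against the isotype antibody). For Trim43b and untreated samples, the log2 fold change was 0.95 (limma adjusted p = 0.00451). The values rest on 1.99 to 104 exonic reads, 3.22 to 34.2% of those over the span, and 5.57% of its 150-base words occur in Trim43a, Trim43c or 9330159M07Rik, so the identity of these reads is uncertain. Trim58, which acts in red cell maturation, was at 0.0559 to 0.699 CPM. Trim7, a glycogenin partner, had a log2 fold change of -0.22 and shared 12.3% of its exon bases with the antisense genes Gm12184 and Gm16170.

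The isotype antibody was also compared with no antibody. No member was called in limma with Benjamini-Hochberg adjustment, and 1 of 13741 genes was (0.00728%). At an unadjusted p under 0.05 there were 5 members and 12.7% of all genes, and edgeR and DESeq2 also called no member (0 and 13 of all genes). The libraries did not overlap in 4 members, beside 13.2% of all genes. Log2 fold changes ran from -0.54 (Trim47) to 0.64 (Trim56), with a median of 0.027 over the members. This count rests on untreated 7. Without it, 4 of 45 tested members were called beside 16.4% of all genes. Trim56 (log2 fold change 1.09, limma adjusted p = 0.000213), Trim46 (0.80, 0.0122) and Trim37 (0.44, 0.0242) were higher with the isotype antibody, and Trim47 (-0.77, 0.0153) was lower. In all 4 genes untreated 7 lay nearer to the isotype antibody mean than to untreated 8 and 9, as the per-library plot of these genes shows.

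**Figure D5:**
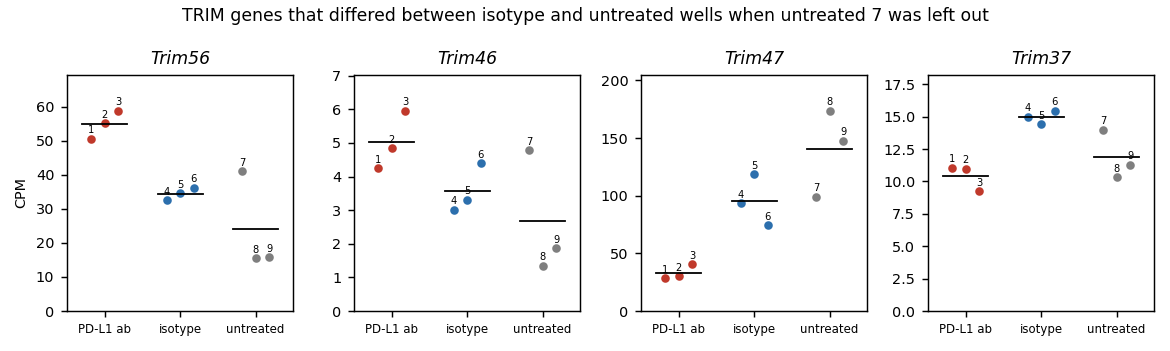
CPM (y axis, from 0) in each numbered library, with group means as lines, for the 4 TRIM genes called between isotype antibody and untreated samples when untreated 7 was left out. Untreated 7 stands at 41 CPM for Trim56, against 15.5 and 15.8 CPM in untreated 8 and 9.

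The TRIM ligases work with other genes, taken here from lists by role, with values as mean ± SD of 3 libraries. Each count stands beside 36.4% of all genes called, 18.2% higher and 18.2% lower, and a median of -0.015. Of 4 tested TRIM proteins with other gene symbols, 2 rose against the isotype antibody and none fell (median 0.70). Mefv, which encodes pyrin, stood at 121 ± 4.43 CPM against 34.4 ± 4.11 CPM with the isotype antibody (log2 fold change 1.79, limma adjusted p = 1.33e-06). Pml, the nuclear body organiser, was at 265 ± 13.6 CPM against 161 ± 7.66 CPM with the isotype antibody (log2 fold change 0.71, limma adjusted p = 0.000201). Of the 17 ubiquitin and E2 enzyme genes 4 rose and 2 fell (median 0.15), a share called near the 36.4% of all genes. The E1 gene Uba1 was at 483 ± 11.6 CPM against 305 ± 7.54 CPM with the isotype antibody (log2 fold change 0.66, limma adjusted p = 0.000522), while Ube2d1, an E2 that many RING ligases use, was at 13 ± 1.31 CPM against 20.5 ± 0.867 CPM with the isotype antibody (log2 fold change -0.62, limma adjusted p = 0.000926).

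Sensors and adaptors that TRIM ligases act on rose in 11 of 21 cases and fell in 2 (median 0.48), beside 18.2% of all genes higher, 18.2% lower and a median of -0.015. The kinase gene Ikbke, the target of Trim6 chains, stood at 223 ± 20.3 CPM against 103 ± 6.12 CPM with the isotype antibody (log2 fold change 1.11, limma adjusted p = 3.39e-06). Ifih1, which encodes the double-stranded RNA sensor MDA5, was at 270.0 ± 25.8 CPM against 124 ± 11.9 CPM with the isotype antibody (log2 fold change 1.12, limma adjusted p = 8.35e-06). Of 20 interferon-stimulated reference genes 19 rose, none fell, and their median was 1.29. Bst2, which encodes the virion-tethering protein tetherin, was at 939 ± 44 CPM against 404 ± 45.6 CPM with the isotype antibody (log2 fold change 1.22, limma adjusted p = 4e-06). Set beside these, the rises of Trim21 (0.84) and Trim30d (0.98) were below that median and Trim34a (0.37) and Trim14 (0.27) further below.

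Deubiquitinases that counter TRIM ligases rose in 4 of 12 cases and none fell (median 0.11), a share called near the 36.4% of all genes. Usp18, the ISG15 protease, was at 366 ± 27.1 CPM against 96.2 ± 15.7 CPM with the isotype antibody (log2 fold change 1.93, limma adjusted p = 6.51e-06), and Tnfaip3, or A20, at 145 ± 11.5 CPM against 49.7 ± 4.69 CPM with the isotype antibody (log2 fold change 1.52, limma adjusted p = 2.48e-05). Selective autophagy partners fell in 6 of 12 cases and rose in 2 (median -0.32), beside 18.2% of all genes in each direction. Calcoco1, a receptor for the endoplasmic reticulum and Golgi, stood at 32.6 ± 1.58 CPM against 56.9 ± 1.11 CPM with the isotype antibody (log2 fold change -0.78, limma adjusted p = 1.61e-05), and the receptor gene Tax1bp1 at 296 ± 22.9 CPM against 187 ± 13.9 CPM with the isotype antibody (log2 fold change 0.66, limma adjusted p = 0.000141). Of the 8 tested partners of the Trim28 repressor complex 1 rose and 1 fell (median -0.011). The rise was that of the histone methyltransferase gene Setdb1, at 59.8 ± 4.15 CPM against 48.7 ± 3.41 CPM with the isotype antibody (log2 fold change 0.29, limma adjusted p = 0.0247), and the fall that of the remodeller gene Chd3, at 122 ± 4.16 CPM against 172 ± 7.02 CPM with the isotype antibody (log2 fold change -0.49, limma adjusted p = 0.000228).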

How the data were processed

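RNA of 9 macrophage samples, enriched with oligo(dT), was sequenced as paired 150-base reads, per the labels. The submitters' processing notes name Partek and STAR without versions, and a genome build is not given in the sources used here; transcript positions matched GRCm38 annotation. The deposited read counts cover, per the file headers and from the values, whole gene spans with introns, repeated for isoforms. The values analysed come from the deposited average coverage (signal per exonic base, per the file headers), times exon length, divided by 150, using the transcript with most reads per symbol. The percent of bases covered, per the file headers, was used as a check.

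Libraries were scaled by TMM over the 13741 genes that passed filterByExpr, values were taken as log2(CPM + 1), and all 9 libraries were fitted in limma 3.58.1 with a trended variance, two-sided, Benjamini-Hochberg adjusted over all genes at 0.05. edgeR 4.0.16 and DESeq2 1.42.0 in R 4.3.3 were alternatives on rounded reads. The procedure was tested on simulated data. Tables and motif searches used Python 3.11.15, pandas 2.3.3 and numpy 2.4.6, and figures matplotlib 3.10.9. Exonic reads per library (23554320 to 40116467) limit low genes most. Without molecular identifiers, PCR copies cannot be told from separate molecules.

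Members and lists were chosen with earlier results of these data known. Values in every library are given for members called against the isotype antibody whose groups did not overlap and whose higher mean was at least 1 CPM (at most 8 rises and 8 falls), and for Trim8, Trim21, Trim27, Trim28, Trim32 and Trim33; other called members are given by mean and fold, and from each other list the 2 genes with the lowest p, apart from the cell markers and 1 gene that is not reported here. Trim6, Trim46, Trim56, Trim5 and Trim12c were given in more detail than this rule asks, after their values were seen. Words of 150 bases shared between genes, and exon overlap, were found in GENCODE M21 (GRCm38). Protein sequences were not used here.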

Additional observations from a re-analysis of the deposited data

How the results depend on the processing

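Each comparison was refitted under 12 other settings, at a threshold of 0.01 and without each library. Scaled by total counts, the TRIM genes called against the isotype antibody were 5 higher and 18 lower, and against untreated samples 7 higher and 13 lower. At 0.01 they were 8 (5 higher, 3 lower) and 11 (7 higher, 4 lower). Leaving out 1 library gave 9 to 21 calls against the isotype antibody (5 to 11 higher, 4 to 10 lower), lowest without PD-L1 antibody 2 or isotype 5, and 12 to 20 against untreated samples (7 to 11 higher, 5 to 9 lower), lowest without PD-L1 antibody 2. Between isotype antibody and untreated samples the range was 0 to 4 (0 to 3 higher, 0 to 1 lower), above 0 only without untreated 7. The highest counts with the PD-L1 antibody, 21 against the isotype antibody and 20 against untreated samples, came without untreated 7. What sets these changes was not tested. No called member changed sign. Among members not called, changes of sign are given only for Trim8, Trim28, Trim33 and those called in the other comparison. Other members near 0, such as Trim35 and Trim41, are not covered here. Trim5 against the isotype antibody changed sign to 0.00335 with DESeq2, to 0.061 with edgeR on deposited read numbers, and ranged from -0.052 to 0.054 without 1 library. Against untreated samples Trim33 ranged from -0.098 to 0.0082 and Trim8 from -0.11 to 0.047. No paired analysis was possible because the groups share no replicate numbers.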
